A study of Mus musculus with 34 samples.

Results

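A set of 9 genes of glycogen metabolism were followed through the left ventricle (LV) of mice after myocardial infarction (MI): the phosphorylases Pygl, Pygm and Pygb, the phosphorylase kinase subunits Phka1 and Phkg1, the synthesis enzymes Ugp2, Gys1 and Gbe1, and the phosphatase targeting subunit Ppp1r3c. They were taken by gene symbol from a pair of RNA-seq tables, which listed all 9 of them among 14552 genes in the first table and among 17406 genes in the second. The set was drawn up with measured values of these data in view, the change of Pygl between sham, 4 h and 24 h in the first table among them, and the genes were thus selected on these measured values. The values of the 9 genes in the first table are therefore described without a test.

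CFW mice were used throughout, and MI was made by a permanent tie of the left anterior descending coronary artery. The first table held 3 sham libraries, 3 libraries 4 h post-MI and 4 libraries 24 h post-MI, all from mice without injection. Its sham libraries carry the label "No operation", while the methods describe a sham operation. The second table held 2 libraries of a sham operation without injection, labelled 4 h, and libraries of MI hearts injected at the border zone with AC or Luc modified mRNA (modRNA): 4 and 4 libraries at 4 h, 3 and 3 at 24 h, and 4 and 4 at 48 h. Luc is firefly luciferase, and AC is not spelled out in the sources used here. There was no sham group at 24 h or 48 h and no uninjected MI group in the second table. Sequenced tissue, as the methods describe it for the uninjected hearts, was a piece of the ischemic area or its sham counterpart. All libraries are of bulk tissue, so fewer cells of a type and less RNA per cell cannot be told apart in any value below. Values are CPM, read counts scaled to library size and, in the first table, by a trimmed-mean (TMM) factor. Scaling was separate in each table, and levels are not compared between the tables by a test. Summed CPM of the listed genes varied in the second table, from 678772 to 818456 at 24 h and from 508204 to 641170 at 48 h. In the first table the lowest value of a library, taken as 1 read, was between 0.0313 and 0.0479 CPM, and the 9 genes stood at 31 reads or more in every library. Read depth of the second table is unknown.

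Glycogen is the branched glucose store of muscle and liver. UDP-glucose pyrophosphorylase (Ugp2) makes the activated sugar, glycogen synthase (Gys1 in muscle) adds it to the chain and the branching enzyme (Gbe1) makes the branches. Glycogen phosphorylase removes glucose units again as glucose 1-phosphate and exists as a liver form (Pygl), a muscle form (Pygm) and a brain form (Pygb), of which the heart is known to use the muscle and brain forms. Phosphorylase kinase, with the regulatory subunit Phka1 and the catalytic subunit Phkg1 in muscle, switches phosphorylase on by phosphorylating a serine near its amino terminus. Ppp1r3c brings protein phosphatase 1 to the glycogen particle, where it acts the other way.

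The stretch that holds this serine is shown because it is the point at which the kinase subunits act on all 3 phosphorylases. The first 60 coding bases of each transcript in the GRCm38 annotation, in frame and aligned without gaps, read as follows, with capitals where a base differs from Pygm.
Pygm: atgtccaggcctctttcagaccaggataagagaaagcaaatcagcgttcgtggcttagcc
Pygb: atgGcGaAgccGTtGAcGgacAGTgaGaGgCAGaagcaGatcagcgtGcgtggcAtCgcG
Pygl: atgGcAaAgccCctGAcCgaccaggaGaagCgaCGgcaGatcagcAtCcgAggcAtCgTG
Pygb differed from Pygm at 21 of these bases and Pygl at 19. Codon 15, the serine codon agc, was the same in all 3. Over the whole coding sequence, Pygm and Pygb were 77.3% identical, Pygm and Pygl 74.3% and Pygb and Pygl 74.5%. Reads of the first table were 50 bases long. Pygm and Pygb shared 13 windows of 50 bases, the longest identical run being 62 bases, and Pygl shared no such window with either. A small part of the Pygm and Pygb reads could therefore be assigned to either gene, whereas Pygl reads could not be taken for the others by identity.

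The 3 phosphorylase genes lie on different chromosomes. In mm10, Pygl occupied chr12:70190815-70227683 on the minus strand, Pygm chr19:6384408-6398464 on the plus strand and Pygb chr2:150786796-150831748 on the plus strand, each with 20 exons. The others were Phka1 at chrX:102513975-102644301, Phkg1 at chr5:129863431-129879134, Gys1 at chr7:45434839-45456617, Gbe1 at chr16:70313949-70569720, Ugp2 at chr11:21321126-21371267 and Ppp1r3c at chr19:36731731-36736604. The 250 bases before each transcript start are printed because the muscle and brain forms moved together and the liver form apart from them. Sequences are from RefSeq (GRCm38.p6) in transcript direction, and capitals mark ACGTG or GCGTG on either strand, the core of the site bound by hypoxia-inducible factors, with matches on each strand counted separately.
Pygl, chr12:70227684-70227933, minus strand: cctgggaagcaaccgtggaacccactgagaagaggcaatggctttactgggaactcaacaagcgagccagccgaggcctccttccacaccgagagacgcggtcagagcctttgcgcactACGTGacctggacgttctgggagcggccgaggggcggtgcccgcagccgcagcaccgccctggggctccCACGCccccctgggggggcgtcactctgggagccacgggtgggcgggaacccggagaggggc
Pygm, chr19:6384158-6384407, plus strand: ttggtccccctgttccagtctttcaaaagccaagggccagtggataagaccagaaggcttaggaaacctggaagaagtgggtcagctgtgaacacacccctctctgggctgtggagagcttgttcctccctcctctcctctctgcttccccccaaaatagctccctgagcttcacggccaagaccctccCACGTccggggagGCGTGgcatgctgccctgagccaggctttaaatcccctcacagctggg
Pygb, chr2:150786546-150786795, plus strand: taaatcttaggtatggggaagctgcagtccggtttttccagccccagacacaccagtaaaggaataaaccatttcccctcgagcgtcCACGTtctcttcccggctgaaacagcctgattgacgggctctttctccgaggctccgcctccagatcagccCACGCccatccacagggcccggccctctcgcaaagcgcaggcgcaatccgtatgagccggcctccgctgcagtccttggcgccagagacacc
Each of the 3 windows held this core 2 times. Of the other 6 genes, Ugp2 held it 6 times, Ppp1r3c 4 times, Phka1 2 times, and Phkg1, Gys1 and Gbe1 not at all. The core is short, and 38.6% of 27025 RefSeq promoter windows of this length held at least 1. Other short motifs were counted as well. The GC box GGGCGG occurred 3 times for Pygl and 0 times for Pygm and Pygb, and 32.9% of all windows held it. The E-box CANNTG occurred 2 times for Pygm and 0 times for Pygl and Pygb, and 66.0% of all windows held it. GC content of the window was 69.2% for Pygl, 58.4% for Pygm and 60% for Pygb. The matches describe the letters only.

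In all 34 libraries the order per kb of transcript was the same, with Pygm highest, then Pygb, then Pygl. In the sham libraries of the first table Pygm stood at 353 ± 22 CPM per kb (SD, n = 3), Pygb at 171 ± 26.6 and Pygl at 1.69 ± 0.999. Of the summed phosphorylase transcripts per kb, this gave Pygm 67.3% ± 2.07, Pygb 32.4% ± 2.1 and Pygl 0.325% ± 0.189. In the sham libraries of the second table the shares were 69.1% ± 7.51 (SD, n = 2) for Pygm, 30.7% ± 7.44 for Pygb and 0.201% ± 0.0731 for Pygl. The muscle and brain forms thus made up nearly all phosphorylase mRNA of the uninjured LV. Pygl was under 2% of the sum in 31 of the 34 libraries, the others being the 24 h post-MI libraries C, D and H of the first table.

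Pygl in the first table was at 3.65, 2.70 and 7.99 CPM in sham libraries D, H and I, and at 3.38, 2.92 and 3.14 CPM in the 3 libraries 4 h post-MI. At 24 h post-MI it was at 64.1 CPM in library C, 48.9 in D, 14.2 in G and 31.9 in H. The 4 h libraries lay within the sham range, which was wide because of sham library I, and all 4 libraries at 24 h lay above every sham library. As ratios of group means to sham, these are 0.658 ± 0.391 (propagated SD) at 4 h and 8.31 ± 6.66 at 24 h. Without sham library I the ratio at 24 h was 12.5 and at 4 h 0.990, and without library G the ratio at 24 h was 10.1.

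Pygm and Pygb lay the other way. Pygm was at 948, 1074 and 1018 CPM in sham, at 939, 959 and 1062 CPM at 4 h, and at 328, 471, 540 and 364 CPM in libraries C, D, G and H at 24 h. Pygb was at 560, 768 and 675 CPM in sham, at 637, 630 and 687 CPM at 4 h, and at 183, 256, 353 and 207 CPM at 24 h. For both genes the sham and 4 h libraries were mixed and every 24 h library was below every sham library. The ratio to sham at 24 h was 0.420 ± 0.0998 for Pygm and 0.374 ± 0.127 for Pygb. Library G, the lowest of the 4 for Pygl, was the highest for both.

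**Figure D1:**
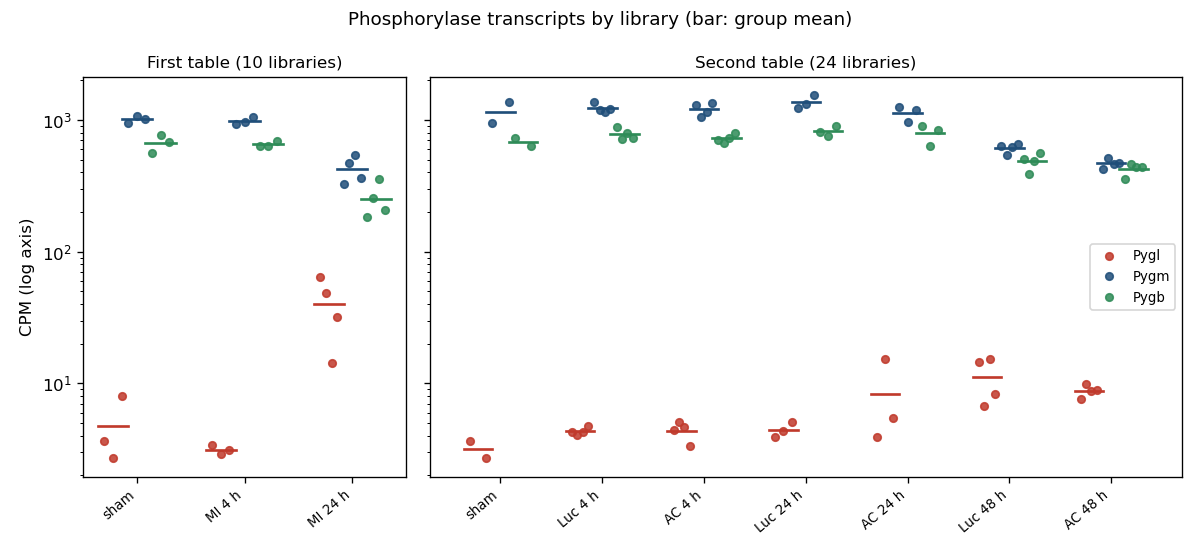
CPM of Pygl, Pygm and Pygb in each library (points, log axis) with group means (bars), first table left and second table right. Pygl is at 14.2 to 64.1 CPM in the 24 h libraries of the first table and at 6.78 to 15.4 CPM at 48 h after Luc in the second, while Pygm and Pygb are lowest at 24 h in the first table and at 48 h in the second.

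Of the other 6 genes in the first table, the catalytic kinase subunit Phkg1 showed the widest gap. It was at 16.0, 14.4 and 12.1 CPM in sham, 9.11, 10.2 and 11.3 CPM at 4 h, and 2.11, 1.51, 1.25 and 1.43 CPM at 24 h. No library at 4 h or 24 h reached the lowest sham library, and the ratio to sham was 0.722 ± 0.128 at 4 h and 0.111 ± 0.0306 at 24 h. Phkg1 overlaps Sumf2 on the other strand, and the use of strand in counting is not given in the sources used here. The regulatory subunit Phka1 was at 38.4 to 43.1 CPM in sham, 38.1 to 39.3 CPM at 4 h and 14.4 to 34.5 CPM at 24 h, with library G again nearest to sham.

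Among the synthesis enzymes, Gbe1 was the only one of the 3 that lay above sham. It was at 50.2, 54.9 and 49.8 CPM in sham, 50.2, 51.5 and 60.8 CPM at 4 h, and 99.2, 79.8, 84.3 and 117 CPM at 24 h, a ratio of 1.84 ± 0.339. Gys1 was at 99.1 to 122 CPM in sham and at 60.2 to 91.8 CPM at 24 h. Ugp2, which overlaps Vps54 on the other strand, was at 222 to 329 CPM in sham and 170 to 245 CPM at 24 h, so its groups overlapped. Ppp1r3c was at 167, 131 and 122 CPM in sham, 89.6 to 122 CPM at 4 h and 61.7 to 98.3 CPM at 24 h, below sham at both times, by a margin of under 1 CPM between the highest library at 4 h and the lowest sham library.

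Counted by groups that did not overlap with sham, 2 of the 9 genes (Pygl and Gbe1) were higher and 6 lower at 24 h, where 35.3% of the 12487 genes averaging 1 CPM or more were higher and 28.7% lower in the same sense. At 4 h, 0 were higher and 2 (Phkg1 and Ppp1r3c) lower, beside 10.9% and 18% of all genes. Because these values belong to the contrasts in view when the set was chosen, nothing is read from the counts.

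Marker genes of other cells moved with these values. The summed CPM of 8 neutrophil markers was 1.41 to 2.01 in sham, 7.48 to 31.5 at 4 h, and 1841, 1647, 287 and 781 in libraries C, D, G and H at 24 h, an order of libraries equal to that of Pygl. Sham library I, with the highest Pygl of the sham libraries, was at 2.01. The 8 cardiomyocyte markers summed to 44452 to 47296 CPM in sham and 44626 to 47809 CPM at 4 h. At 24 h they summed to 20599, 26040, 34291 and 26091 CPM in libraries C, D, G and H, the reverse of the Pygl order. The 8 monocyte and macrophage markers summed to 135 to 219 CPM in sham and 156 to 186 CPM at 4 h. At 24 h they were at 485, 290, 325 and 322 CPM in the same libraries, in another order than Pygl. The part of cell makeup in the levels was not tested. Taken per 1000 CPM of cardiomyocyte markers, a ratio added after seeing the data, Pygm was at 21.0 to 22.9 in sham and 13.9 to 18.1 at 24 h, and Pygb at 12.4 to 16.2 and 7.95 to 10.3. Gbe1 was at 1.11 to 1.16 and 2.46 to 4.82 on the same scale, and Phka1 at 0.863 to 0.957 and 0.696 to 1.01. Phkg1 was at 0.271 to 0.354 and 0.0364 to 0.102, and Pygl at 0.0571 to 0.180 and 0.415 to 3.11. For Pygl, Pygm, Pygb, Phkg1 and Gbe1 the groups stayed apart on this scale, and for Phka1 they overlapped. Gys1, at 2.23 to 2.70 in sham and 2.31 to 3.80 at 24 h, and Ppp1r3c, at 2.75 to 3.71 and 2.37 to 4.04, also overlapped, and their means turned to the higher side at 24 h, from 2.42 to 2.83 and from 3.08 to 3.20. Ugp2 turned as well, with means of 5.85 and 7.94. The share of all genes whose sham and 24 h groups stay apart on the cardiomyocyte marker scale was not computed. These values belong to the contrasts in view when the set was chosen, so nothing is read from which genes stayed apart. Per 1000 CPM of neutrophil markers Pygl lay the other way, at 1914 to 3968 in sham and 29.7 to 49.5 at 24 h. The sham marker sums under this ratio were 2.01 CPM or less. The hepatocyte list had only Ahsg in the first table, at 3.13 CPM or less in every library. Of 7 skeletal muscle markers listed there, Ckm, which the heart also expresses, carried most of the sum.

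**Figure D2:**
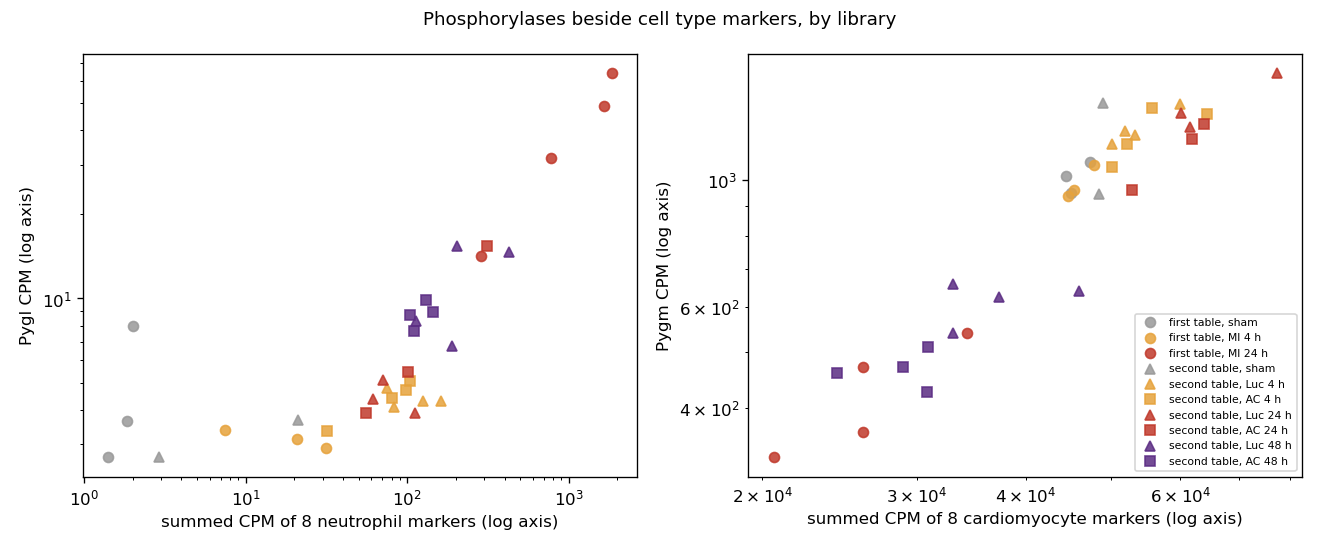
Pygl against the summed CPM of 8 neutrophil markers (left) and Pygm against that of 8 cardiomyocyte markers (right), 1 point per library, log axes. The 24 h libraries of the first table lie at 287 to 1841 CPM of neutrophil markers and 20599 to 34291 CPM of cardiomyocyte markers. The tables were scaled separately, and no correlation was computed.

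In the second table, made from other libraries, the 9 genes were tested with limma on log2(CPM + 1). The q values were adjusted over the 12555 genes averaging 1 CPM or more. The set was chosen with earlier results of these data known. All 9 passed this filter. Changes are log2 differences with their standard error (SE), and the 3 comparisons with sham share the same 2 sham libraries. Labels number the sham and 4 h libraries in 1 run of S numbers, the 48 h libraries in another and the 24 h libraries in none, so time and any difference between sequencing runs cannot be told apart. Titles of the 24 h libraries, of both AC and Luc, also carry the letters Br, which the sources used here do not explain. Whatever Br stands for cannot be told apart from time in comparisons with the 24 h groups.

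At 4 h after Luc injection, none of the set, 0 of 9, was called against sham at q under 0.05 (limma, 0 also at an unadjusted p under 0.05), where 1.55% of all genes were called. Pygl was at 3.68 and 2.70 CPM in sham and at 4.07 to 4.79 CPM in the 4 Luc libraries, a difference of 0.36 ± 0.33. Pygm differed by 0.12 ± 0.16 and Pygb by 0.20 ± 0.16. The sham libraries stood far apart for some genes, at 945 and 1366 CPM for Pygm, 380 and 186 CPM for Ugp2 and 164 and 90.0 CPM for Ppp1r3c, which widens every comparison with them.

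Between 4 h and 24 h the phosphorylases had no called change. After Luc, Pygl was at 3.90, 4.38 and 5.09 CPM at 24 h, around its 4 h range, with a difference of 0.02 ± 0.29. After AC, Pygl was at 3.90, 15.4 and 5.44 CPM in libraries A, C and D, and the difference of 0.59 ± 0.29 had a q value of 0.15 (limma), with 0.07 ± 0.23 (q = 0.85) without library C and 0.95 ± 0.29 (q = 0.038) without library A. Library C is the high one of the 3. It also had the most neutrophil marker RNA of the 24 h libraries, with a sum of 310 CPM beside 55.8 to 111 CPM in the other 5. Library D, with Pygl at 5.44 CPM, had 239 CPM of 6 hepatocyte markers, beside 11.3 CPM or less in every other library of the table, and the part of either marker list in Pygl was not tested. Pygm was at 1241, 1311 and 1537 CPM at 24 h after Luc and at 1251, 961 and 1180 CPM after AC, beside 1155 to 1358 CPM and 1055 to 1334 CPM at 4 h. AC library C was thus the only one of these 6 below the 4 h range of its treatment. In the first table, by contrast in levels only, Pygm was at 328 to 540 CPM at this time. The mice of the first table had no injection, and no test was made across the tables.

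Phka1 was the only gene of the 9 called from 4 h to 24 h in either treatment. It was at 40.9, 37.8, 44.7 and 38.4 CPM 4 h after Luc and at 99.6, 66.1 and 61.2 CPM at 24 h, and at 33.6, 54.3, 48.4 and 38.4 CPM 4 h after AC and 62.8, 94.9 and 88.8 CPM at 24 h. Within each treatment every 24 h library was above every 4 h library. The change was 0.86 ± 0.21 after Luc (limma q = 0.0038) and 0.90 ± 0.21 after AC (q = 0.0054). Relative to the median of all genes, which was higher by 0.14 and 0.11 at 24 h, these are 0.72 and 0.79. The 1 call of 9 stands beside 32.3% of all genes after Luc and 18.7% after AC. At an unadjusted p under 0.05 there were 3 genes in each comparison, the others being Gbe1, at 0.39 ± 0.17 after Luc (limma q = 0.080) and 0.43 ± 0.17 after AC (q = 0.077), and Gys1, at 0.29 ± 0.14 (q = 0.11) and 0.36 ± 0.14 (q = 0.069). For Gbe1 every 24 h library was above every 4 h library in both treatments, and for Gys1 after AC. Against sham, Phka1 was higher by 0.79 ± 0.25 at 24 h after Luc (q = 0.019), again the only one of the 9, beside 34.1% of all genes, or by 0.63 relative to the median of all genes, which was higher by 0.16. Without both AC libraries C and D, an alternative added after seeing the data, the call after AC was lost (q = 0.31). The call against sham was lost without Luc library A (q = 0.16 at most over all settings), without sham library 1 and after median-ratio rescaling. Cardiomyocyte markers summed to 50147 to 59946 CPM at 4 h after Luc and 60206 to 77361 CPM at 24 h, and to 50115 to 64366 CPM and 52793 to 63846 CPM after AC. Per 1000 CPM of these markers, Phka1 was at 0.682 to 0.892 and 0.791 to 1.62 after Luc and at 0.522 to 1.083 and 0.983 to 1.80 after AC, so the groups overlapped on this scale. The direction is opposite to that of the 24 h values of the first table, where Phka1 stood below sham.

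Between 24 h and 48 h most of the set changed. After Luc, 6 of the 9 genes were called, 1 higher and 5 lower, beside 41.9% of all genes, and after AC 7 of 9 were called, all lower, beside 44.5%. These shares count both directions. Of all genes tested, 1170 were called higher and 4088 lower after Luc, and 2382 higher and 3207 lower after AC. The median change of the 9 genes was -0.53 after Luc and -0.88 after AC, while that of all genes tested was -0.25 and -0.08.

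The muscle form Pygm fell in both treatments. At 48 h it was at 639, 541, 626 and 659 CPM after Luc and at 427, 511, 460 and 471 CPM after AC, each below every 24 h library. It fell by 1.14 ± 0.14 after Luc (limma q = 6.8e-06) and by 1.27 ± 0.14 after AC (q = 3.8e-07). Pygb was at 504, 387, 489 and 560 CPM after Luc and 359, 465, 436 and 442 CPM after AC, again below all 24 h libraries, and it fell by 0.77 ± 0.14 (q = 0.00034) and 0.88 ± 0.14 (q = 4.3e-05). All 4 of these calls held in every alternative setting.

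Pygl rose after Luc. It was at 14.6, 6.78, 15.4 and 8.32 CPM at 48 h, above all Luc libraries at 4 h and 24 h, a change of 1.10 ± 0.29 from 24 h (limma q = 0.0044) that held in every alternative setting. Libraries 1 and 3 were above libraries 2 and 4. After AC it was at 7.64, 9.85, 8.71 and 8.95 CPM, a narrower range, with a difference from 24 h of 0.28 ± 0.29 (q = 0.45). AC library C at 24 h, at 15.4 CPM, lay above all 4. Without it the change after AC was 0.80 ± 0.23 and called (q = 0.0083), and without library A it was -0.08 ± 0.29 (q = 0.86), so the value after AC depended on single libraries. With array weights it was 0.63 ± 0.19 (q = 0.0067). Neutrophil markers summed to 426, 190, 202 and 114 CPM in Luc libraries 1 to 4 and to 104 to 144 CPM in the AC libraries at 48 h, and monocyte and macrophage markers to 211 to 289 CPM and 442 to 616 CPM. Per 1000 CPM of neutrophil markers, Pygl after Luc was at 35.1 to 71.8 at 24 h and 34.4 to 75.9 at 48 h. After AC it was at 49.8 to 69.9 and 62.4 to 83.6, and the groups overlapped in both treatments. The part of these cells in the Pygl level was not tested.

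Both kinase subunits fell by 48 h. Phkg1 was at 9.88, 10.2 and 22.4 CPM at 24 h after Luc and at 3.29, 5.17, 2.495 and 5.88 CPM at 48 h, and it fell by 1.5 ± 0.29 (limma q = 0.00045). After AC it was at 10.7, 7.84 and 7.47 CPM and then at 3.29, 4.80, 2.33 and 3.63 CPM, and it fell by 1.11 ± 0.29 (q = 0.0037). Phka1 returned from its 24 h level, falling by 1.57 ± 0.21 after AC (q = 4.1e-06), where the 48 h libraries were at 23.6 to 28.2 CPM. After Luc it fell by 0.55 ± 0.21 (q = 0.039), and this call was lost in 5 of 31 settings, median-ratio rescaling among them (q = 0.29).

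Of the synthesis enzymes, Gys1 fell by 0.53 ± 0.14 after Luc (limma q = 0.0042, lost after median-ratio rescaling at q = 0.080) and by 0.89 ± 0.14 after AC (q = 2.4e-05). Its 48 h libraries were at 94.5 to 98.3 CPM and 68.2 to 84.1 CPM. Gbe1 and Ugp2 fell after AC, Gbe1 by 0.74 ± 0.17 (q = 0.0014) and Ugp2 by 0.86 ± 0.21 (q = 0.0021). After Luc the differences were 0.05 ± 0.17 and -0.18 ± 0.21, neither of them called, and that of Ugp2 turned to 0.07 relative to the median of all genes. Relative to that median the changes after Luc were 1.35 for Pygl, -0.89 for Pygm, -0.52 for Pygb, -1.25 for Phkg1, -0.28 for Gys1 and -0.30 for Phka1. Ppp1r3c had no called change in any comparison of the second table, with -0.30 ± 0.28 after Luc and -0.26 ± 0.28 after AC. Its 24 h Luc libraries ran from 65.7 to 184 CPM.

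**Figure D3:**
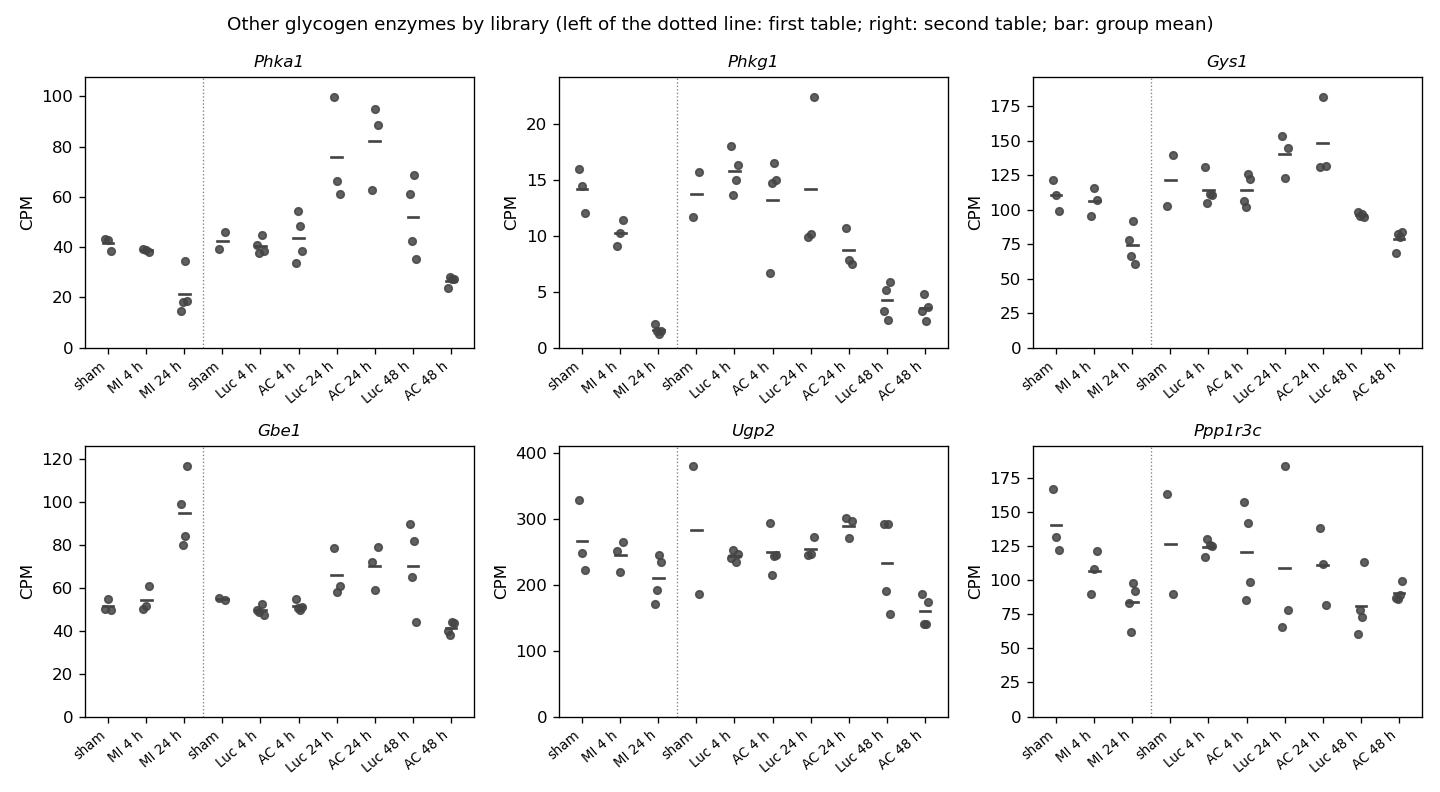
CPM of Phka1, Phkg1, Gys1, Gbe1, Ugp2 and Ppp1r3c in each library (points, axis from 0) with group means (bars), first table left of the dotted line. Phka1 is at 61.2 to 99.6 CPM in the 24 h libraries of the second table and at 14.4 to 34.5 CPM in those of the first, and Phkg1 is lowest at 24 h in the first table and at 48 h in the second.

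Set against sham, the 48 h Luc libraries had 4 called genes of 9, beside 30.1% of all genes. Pygl was higher by 1.49 ± 0.33 (limma q = 0.0017), Pygm lower by 0.89 ± 0.16 (q = 0.00029), Pygb lower by 0.50 ± 0.16 (q = 0.024) and Phkg1 lower by 1.53 ± 0.33 (q = 0.0014). Of these, the call for Pygb was lost without Luc library 2, without sham library 1 and in a fit of the 2 groups alone (q up to 0.20). The other 3 held in every setting.

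Against the cardiomyocyte markers, which summed to 60206 to 77361 CPM at 24 h after Luc and 32997 to 46036 CPM at 48 h, the genes differed. Per 1000 CPM of these markers, Pygm was at 19.9 to 21.8 at 24 h after Luc and 13.9 to 19.95 at 48 h, and after AC at 18.2 to 19.6 and 13.9 to 18.9. Pygb was at 11.6 to 13.1 and 10.95 to 16.9 after Luc, and at 11.97 to 14.1 and 11.7 to 17.9 after AC. Gbe1 was at 0.785 to 1.28 and 1.33 to 2.19 after Luc, with no overlap, and at 1.12 to 1.28 and 1.23 to 1.81 after AC. Phkg1 was at 0.160 to 0.289 and 0.0669 to 0.178 after Luc, and at 0.120 to 0.168 and 0.0956 to 0.155 after AC. After AC, Phka1 was at 0.983 to 1.80 and 0.766 to 1.13 and Gys1 at 2.05 to 3.44 and 2.21 to 3.28. On this scale the 24 h and 48 h groups overlapped for every gene called lower, in both treatments. Of these genes, Pygb, Gys1, Gbe1 and Ugp2 had the higher mean at 48 h after AC (4.88 and 5.59 for Ugp2). After Luc, Pygb, Gys1 and Phka1 did. Pygm and Phkg1 had the lower mean at 48 h in both treatments. The means of Pygm at 24 h and 48 h were 20.6 and 16.8 after Luc and 18.9 and 16.4 after AC. The share of all genes that overlap on this scale was not computed. Whether fewer cardiomyocytes account for the lower CPM was not tested.

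AC and Luc were compared at matched times. At 4 h and at 24 h, 0 of the 9 genes were called (limma, 0 at an unadjusted p under 0.05 at either time), beside 0.00796% of all genes at each. For Pygl the difference AC minus Luc was -0.01 (95% interval -0.56 to 0.54) at 4 h and 0.56 (-0.07 to 1.20) at 24 h, so the interval at 24 h takes in a log2 difference of 1. Without AC library C the difference at 24 h was 0.05 ± 0.25. For Pygm the intervals were -0.30 to 0.24 and -0.58 to 0.04.

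At 48 h, 3 of the 9 genes were called, all lower after AC, beside 15.3% of all genes called in either direction. Of all genes tested, 1516 were called higher and 410 lower after AC. Phka1 was at 61.1, 42.6, 68.8 and 35.1 CPM after Luc and 23.6, 28.2, 27.4 and 27.3 CPM after AC, with no overlap and a difference of -0.89 ± 0.19 (limma q = 0.0041) that was called in 31 of 32 settings. Gbe1 was at 89.6, 64.9, 81.6 and 44.0 CPM after Luc and 40.01, 38.0, 44.2 and 43.4 CPM after AC, a difference of -0.70 ± 0.16 (q = 0.0052), with Luc library 4 inside the AC range. The call for Gbe1 held in 30 of 32 settings and was lost, among others, in a fit of these 2 groups alone. Pygm differed by -0.40 ± 0.13 (q = 0.040), its groups did not overlap, and the call was lost in 13 of 32 settings. Relative to the median of all genes, which was 0.14 higher after AC, the differences were -1.02, -0.83 and -0.53. In the 4 Luc libraries Phka1, Gbe1, Ugp2 and Pygl were all higher in libraries 1 and 3 than in 2 and 4. Cardiomyocyte markers summed to 32997 to 46036 CPM after Luc and 24365 to 30947 CPM after AC, without overlap, and fibroblast markers to 755 to 1170 CPM and 1335 to 2092 CPM, and their part was not tested. Per 1000 CPM of cardiomyocyte markers the Luc and AC groups overlapped for all 3 genes, and the share of all genes that overlap in this way was not computed. Phka1 was at 1.06 to 1.84 after Luc and 0.766 to 1.13 after AC, and Gbe1 at 1.33 to 2.19 and 1.23 to 1.81.

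No gene of the 9 showed a called change of the AC and Luc difference between times. From 4 h to 24 h this test called 0 of 9 (0 at an unadjusted p under 0.05), beside 0.00796% of all genes, and from 24 h to 48 h 0 of 9 (3 at an unadjusted p under 0.05), beside 2.56%. The nearest were Phka1, at -1.02 ± 0.30 (limma q = 0.070), and Gbe1, at -0.79 ± 0.24 (q = 0.084). A call at 48 h and none at 24 h is therefore not shown to be a difference between the times.

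**Figure D4:**
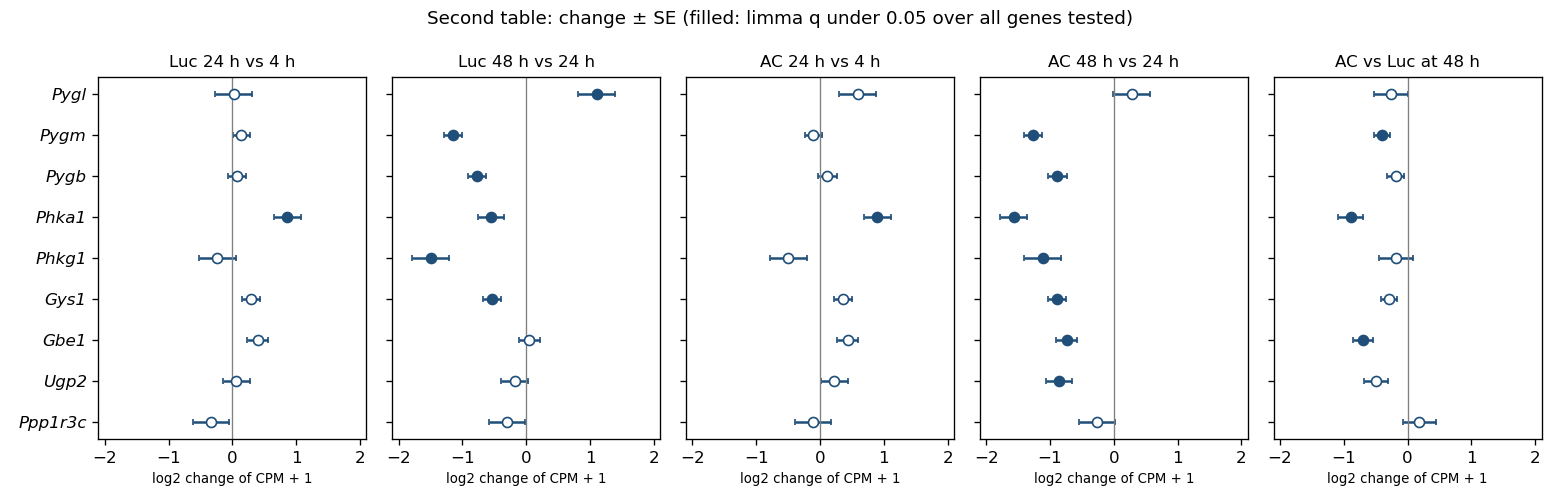
Log2 change ± SE of the 9 genes in 5 comparisons of the second table, filled where the limma q value over all genes tested was under 0.05. Phka1 is the only filled point from 4 h to 24 h in either treatment, and from 24 h to 48 h Pygl lies on the positive side while Pygm, Pygb and Phkg1 lie on the negative side in both treatments.

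The phosphorylase forms were then compared with each other within libraries of the second table, as log2 ratios of CPM + 0.1, by exact two-sided permutation tests with p values adjusted over 12 tests. From 24 h to 48 h, within treatment, all 3 ratios rose. Pygl to Pygm rose by 1.99 (adjusted p = 0.0049 in the exact test, unadjusted p = 0.00082, the smallest these 1225 permutations allow), by 2.38 after Luc and 1.61 after AC. Pygb to Pygm rose by 0.38 (adjusted p = 0.0049, again at the smallest p), by 0.38 after each of Luc and AC. Pygl to Pygb rose by 1.62 (adjusted p = 0.016 in the exact test), by 2.01 and 1.22. Per kb of transcript, Pygl stood at 0.0032 to 0.0034 of Pygm in the Luc libraries at 24 h and at 0.0127 to 0.0250 at 48 h. In the AC libraries it stood at 0.0032 to 0.0163 of Pygm at 24 h and 0.0182 to 0.0196 at 48 h. Against Pygb it stood there at 0.0060 to 0.0338 and 0.0276 to 0.0294, so these groups overlapped. Pygb stood at 0.425 to 0.480 of Pygm at 24 h after Luc, 0.526 to 0.624 at 48 h after Luc and 0.618 to 0.698 at 48 h after AC. The brain form thus fell less than the muscle form.

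None of the 9 other ratio tests passed at an adjusted p under 0.05. For the 8 injected libraries at 4 h against the 2 sham libraries, the adjusted p values in the exact test were 0.38 for Pygl to Pygm, 0.78 for Pygb to Pygm and 0.38 for Pygl to Pygb, in a design whose smallest unadjusted p is 0.022. From 4 h to 24 h they were 0.60, 0.41 and 0.69. For AC against Luc over all times, Pygb to Pygm was higher by 0.11 (unadjusted p = 0.039, adjusted p = 0.12 in the exact test), with -0.08 at 4 h, 0.21 at 24 h and 0.22 at 48 h.

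In the first table the same ratios are given without a test. Pygl stood at 0.0026 to 0.0080 of Pygm per kb in sham, 0.0030 to 0.0037 at 4 h and 0.0268 to 0.199 at 24 h, with no overlap between sham and 24 h. Pygb stood at 0.435 to 0.525 of Pygm in sham and 0.400 to 0.481 at 24 h. The mean ratio of the brain to the muscle form was 0.483 in sham and 0.428 at 24 h, with overlapping groups. At 24 h the shares of the phosphorylase sum were Pygm 65.3% ± 2.11 (SD, n = 4), Pygb 27.9% ± 2.80 and Pygl 6.76% ± 4.36, with Pygl from 1.78% in library G to 12.4% in library C. The sum of the 3 forms was 525 ± 48.5 CPM per kb in sham and 226 ± 47.4 at 24 h.

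**Figure D5:**
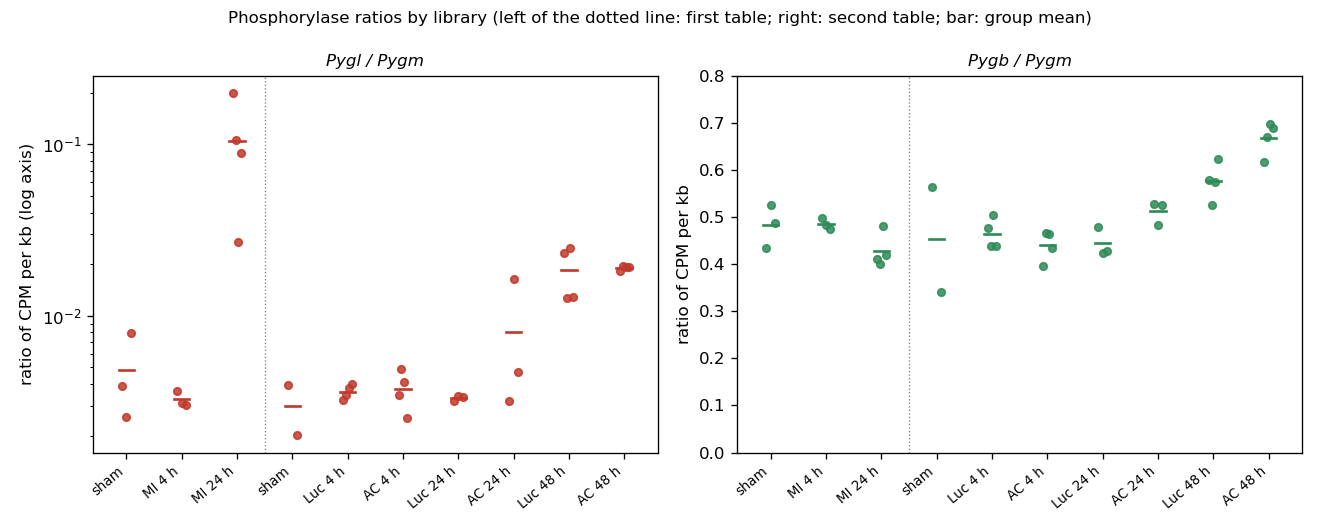
Ratio of Pygl to Pygm (left, log axis) and of Pygb to Pygm (right, axis from 0), CPM per kb of transcript, 1 point per library with group means (bars), first table left of the dotted line. Pygb to Pygm is 0.400 to 0.481 at 24 h in the first table and 0.618 to 0.698 at 48 h after AC in the second.

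A wider list of 23 glycogen genes, of which 20 passed the filter on low values in each table, places these changes. In the uninjected hearts of the first table at 4 h, 1 of 20 was called, higher, beside 2.37% of all genes (limma). It was the gene listed as Pgm1, at 3.59 ± 0.404 CPM in sham and 8.45 ± 1.38 CPM at 4 h (SD, n = 3 each), a change of 1.04 ± 0.16 (q = 0.0063). The tables place this row on chromosome 5, where the GRCm38.p6 release has Pgm2, known mainly as a phosphopentomutase, and the symbols of these 2 genes are exchanged between the tables and that release. The row listed as Pgm2, on chromosome 4, is Pgm1 in that release, the main phosphoglucomutase. This row, singled out after its values were seen, was at 186 ± 4.97 CPM in sham and 148 ± 12.1 CPM at 24 h (SD, n = 3 and 4), a change of -0.33 ± 0.09 (limma q = 0.0096). At 24 h, 13 of 20 were called, 4 higher and 9 lower, beside 66% of all genes. Among the largest changes were the row listed as Pgm1 at 2.27 ± 0.15 and the phosphorylase kinase beta subunit Phkb at -1.26 ± 0.17 (q values 5.6e-07 and 7.5e-05). The median of the 20 was -0.33 and that of all genes 0.04.

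In the second table the 20 genes had 1 call at 4 h after Luc against sham, the row listed as Pgm1 at 1.17 ± 0.29, and 7 calls each at 24 h and 48 h against sham, beside 1.55%, 34.1% and 30.1% of all genes. At 24 h, 4 were higher and 3 lower, led by the row listed as Pgm1 at 1.65 ± 0.31, the lysosomal glucosidase Gaa at 0.81 ± 0.19 and the kinase subunit Phkg2, known from liver, at 0.60 ± 0.19. At 48 h, 2 were higher and 5 lower, led by the same row at 1.19 ± 0.29, the targeting subunit Ppp1r3b at 1.12 ± 0.23 and the glycogen phosphatase laforin (Epm2a) at -0.95 ± 0.20. Without sham library 1 the count at 24 h was 1 and at 4 h 0, and the call at 4 h was also lost without any one of the 4 Luc libraries. From 24 h to 48 h, 10 of 20 were called after Luc, 2 higher and 8 lower, and 12 after AC, 3 higher and 9 lower, beside 41.9% and 44.5% of all genes. The leading genes after Luc were Gaa at -1.06 ± 0.16, Pgm2l1, a glucose 1,6-bisphosphate synthase, at 1.01 ± 0.18, and Ppp1r3b at 0.87 ± 0.20. After AC they were Stbd1, which links glycogen to membranes, at 2.29 ± 0.61, Pgm2l1 at 1.36 ± 0.18 and Gaa at -0.96 ± 0.16. Stbd1 spread widely within groups, at 0.551 to 8.87 CPM at 24 h and 10.8 to 19.2 CPM at 48 h after AC. It was at 0.873 to 16.4 CPM 4 h after AC and at 0.717 and 7.04 CPM in sham. The median of the 20 was -0.34 after Luc and -0.36 after AC.

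From 4 h to 24 h, 3 of the 20 were called after Luc and 1 after AC, beside 32.3% and 18.7% of all genes. Stbd1 fell by 2.61 ± 0.61 after Luc, with libraries at 7.29 to 13.3 CPM at 4 h and 0.549 to 0.913 CPM at 24 h. Phkg2 rose by 0.69 ± 0.16 and Ppp1r3f by 0.47 ± 0.15 after Luc, and Phkg2 rose by 0.51 ± 0.16 after AC. Between AC and Luc, 0 of the 20 were called at 4 h and 0 at 24 h (limma, 0 at an unadjusted p under 0.05 at each), and 2 at 48 h, Stbd1 at 1.67 ± 0.57 and Pgm2l1 at 0.51 ± 0.17, both higher after AC, beside 0.00796%, 0.00796% and 15.3% of all genes. Neither Stbd1 nor Pgm2l1 was called in all settings, and the count fell to 0 with a pseudocount of 0.1 or no filter on low values. No gene of the 20 was called for a change of the AC and Luc difference between times (limma, 0 at an unadjusted p under 0.05 in each of the 2 tests). The row listed as Pgm1 was called at all 3 times after Luc and at both times post-MI in the first table.

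Over the 24 libraries of the second table, the genes of at least 10 CPM most like each phosphorylase were named by Pearson correlation of log2(CPM + 1), as a description over libraries that share time, treatment and cell makeup. For Pygm these were the muscle phosphofructokinase Pfkm (r = 0.994), the pyruvate dehydrogenase kinase Pdk2 (0.990), the carnitine acetyltransferase Crat (0.987), Rnf10 (0.9748) and the isovaleryl-CoA dehydrogenase Ivd (0.974). For Pygb they were the mitochondrial chaperone Trap1 (r = 0.960), the cysteine desulfurase Nfs1 (0.951), Pfkm (0.949), the ornithine aminotransferase Oat (0.945) and Clpb (0.944). For Pygl they were the lactate transporter Slc16a3 (r = 0.880), the endoplasmic reticulum oxidase Ero1l (0.877), the amino acid transporter Slc38a2 (0.875), Fxyd5 (0.870) and the chemokine receptor Ccr1 (0.868). Pfkm was on both the Pygm and the Pygb list, and the Pygl list shared no gene with either.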

How the data were processed

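LV tissue of CFW mice was measured by bulk RNA-seq. Per the labels, RNA was isolated with an RNeasy kit and libraries were made with the TruSeq Stranded mRNA protocol. The authors aligned single reads of 50 bases with STAR to mm10 and estimated gene counts by expectation-maximization on RefSeq genes in Partek Flow. They deposited TMM-scaled CPM for each library, without pooling. For the second table these steps are not given in the sources used here except for the mm10 build, and its deposited CPM carry an added 1, which was subtracted. Labels and methods give different modRNA amounts, so none is stated. In the first table between 78.0% and 82.2% of the values of a library were whole multiples of its lowest value within 0.01, too few for a count test, and no counts were used.

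Groups were taken from the labels. Genes averaging 1 CPM or more were fitted in each table with limma 3.58.1 (R 4.3.3, trend) on log2(CPM + 1) with 1 term per group, and q values are Benjamini-Hochberg over all genes tested. Fold changes on this scale understate those of low genes. Isoform ratios used log2(CPM + 0.1) and exact permutation tests. Levels per kb used 1 RefSeq-matched transcript per gene. The scripts were tested on simulated data. Alternatives were another pseudocount, no filter, the compared groups alone, array weights, median-ratio rescaling, values without subtraction, leaving out each library and a replicate block. The set, the lists and the named genes (all 9; the 3 largest called changes of the wider list per comparison; the 5 genes most like each phosphorylase) were chosen with earlier results of these data known. One result that this rule would name is not reported here. For the first table the authors describe sequencing a piece of each heart, with sample numbers equal to the library numbers. For the second table nothing says which libraries came from separate mice. In both, p-values measure the spread between libraries.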

Additional observations from a re-analysis of the deposited data

Results flagged for a closer look

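In 45 combinations of a gene of the set with a group of 4 libraries, 1 held a library far from the rest on the log2 scale. It was Phkg1 at 4 h after AC, where library 1 was at 6.69 CPM and the other 3 libraries at 14.7 to 16.5 CPM. Chance gives about 1 in 20 such groups. The same library was the lowest of its group for Phka1, at 33.6 CPM. Groups of 2 or 3 libraries were not examined in this way.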

How the results depend on the processing

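Calls of Pygm, Pygb, Phkg1 and Pygl from 24 h to 48 h after Luc, and all 7 calls from 24 h to 48 h after AC, kept their direction and their side of the threshold in all 31 alternative settings. Numbers of called genes that moved by over 1.5 times, or ratios that changed direction, are as follows, and the cause was not tested. Of the 9 genes, AC against Luc at 48 h gave 1 call with the compared groups alone and 5 with median-ratio rescaling, AC from 4 h to 24 h gave 3 with array weights, Luc from 4 h to 24 h gave 2 with the groups alone and 3 with array weights, Luc 24 h against sham gave 0 with median-ratio rescaling, and the change of the AC and Luc difference from 24 h to 48 h gave 2 with median-ratio rescaling. Of the wider list, the first table at 4 h gave 3 with array weights. AC from 4 h to 24 h gave 2 with a pseudocount of 0.1, 0 with the groups alone, 4 with array weights and 2 with median-ratio rescaling. AC against Luc at 48 h gave 0 with a pseudocount of 0.1, 0 without a filter and 1 with the groups alone. Luc from 4 h to 24 h gave 11 with the groups alone, 12 with array weights and 7 with median-ratio rescaling. Luc 24 h against sham gave 2 with the groups alone and 4 with array weights, and Luc 4 h against sham gave 0 without a filter, 2 with the groups alone and 0 with median-ratio rescaling. By difference of medians, Pygb to Pygm for AC against Luc was 0.17 and passed. With AC libraries C and D at 24 h both left out, a choice made after seeing the data, AC from 4 h to 24 h gave 0 of the 9 genes, Luc from 4 h to 24 h gave 5 of the wider list, and Pygl to Pygm and Pygl to Pygb from 4 h to 24 h turned to -0.16 and -0.26 and Pygl to Pygb for AC against Luc to -0.10, and Pygl itself to -0.12 for AC from 4 h to 24 h and -0.15 for AC against Luc at 24 h.

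With a replicate block, AC against Luc at 48 h gave 0 of the 9 genes (q = 0.16 for Phka1 and 0.24 for Gbe1, limma) and 1 of the wider list, and the wider list at 4 h in the first table gave 0 calls. Same-numbered libraries share only a number: their deviations from the group means correlated at -0.183 to 0.288 at 4 h, -0.107 to 0.019 at 24 h and -0.260 to 0.237 at 48 h in the second table.

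Leaving out 1 library at a time gave ranges of 1 to 2 of the 9 genes for AC from 4 h to 24 h, 1 to 2 for Luc from 4 h to 24 h, 0 to 2 for Luc 24 h against sham and 0 to 2 for the change of the AC and Luc difference from 24 h to 48 h (2 without Luc 24 h library A or Luc 48 h library 4). Of the wider list it gave 0 to 2 for AC from 4 h to 24 h, 0 to 2 for AC against Luc at 48 h, 2 to 5 for Luc from 4 h to 24 h, 1 to 8 for Luc 24 h against sham and 0 to 1 for Luc 4 h against sham. Pygl to Pygm at 4 h against sham ran from -0.14 to 0.83 and Pygb to Pygm from -0.32 to 0.40, negative without sham library 2. Without AC 24 h library C, Pygl to Pygm from 4 h to 24 h was lowest in a range of -0.019 to 0.57, Pygl to Pygb in one of -0.12 to 0.50, and Pygl to Pygb for AC against Luc in one of -0.011 to 0.40. Pygb to Pygm for AC against Luc ran from 0.10 to 0.13. Pygl from 24 h to 48 h after AC ran from -0.077 without AC 24 h library A to 0.80 without library C. In the first table the number of the 9 genes wholly above sham at 4 h was 0 to 1, being 1 without sham library H.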
